A study of Mus musculus with 23 samples.

Results

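The subject is gene expression in mouse 2-cell embryos whose mothers lacked Cxxc1 in the growing oocyte, compared with 2-cell embryos of wild-type mothers. All genes were taken that reached an FPKM (fragments scaled to transcript length and to the library's mapped total) of at least 1 in at least 2 of the 5 2-cell libraries. This gave 12178 genes of 24412 gene entries in the series' table. The gene just inside that limit, Ltbp2, had a second-highest value of 1.0003 FPKM, and the gene just outside, Usp44, had 0.999968. Of the 12178 genes, 9223 reached 1 FPKM in both wild-type libraries and in at least 2 deletion libraries, 1394 did so only in the wild-type group and 1286 only in the deletion group. The last 2 sets entered the comparison through the group in which they were high.

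The series measured RNA in germinal vesicle oocytes, zygotes and 2-cell embryos by sequencing, in 23 libraries. Deletion 2-cell embryos (3 libraries) came from Cxxc1fl/fl;Zp3-Cre females mated with wild-type males, and control 2-cell embryos (2 libraries) had wild-type parents on both sides. Zygotes of the same crosses (3 libraries of each) and wild-type and Zp3-Cre deletion oocytes of 3-week females (3 libraries of each) are used below for reference. Wild-type and Gdf9-Cre deletion oocytes of 3-month females (3 libraries of each) enter only the shared estimate of spread. Zp3-Cre is active in growing oocytes, so the mother's body keeps the gene. The embryo inherits a deleted maternal copy and an intact paternal one. Strain, female age for the embryos, hours after mating and embryos per library are not in the labels, and nothing says whether libraries of a group came from separate females. The spread behind each gene's p-value is that between libraries within the 8 groups of all 23 libraries, and it may be technical.

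Cxxc1 encodes CFP1, a CXXC zinc-finger protein that binds DNA containing unmethylated CpG and is a subunit of the SETD1 complexes, which place trimethylation on lysine 4 of histone H3. A mouse embryo starts life on RNA and protein stored by the oocyte. Most of that RNA is destroyed between meiotic maturation and the 2-cell stage, while the main wave of transcription from the embryo's own genome begins in the 2-cell embryo, with a brief burst of genes such as the Zscan4 cluster.

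The libraries were checked first, because deletion library 3 stood apart. Its correlation with the other deletion libraries across genes, on log values, was 0.942 and 0.935, whereas deletion libraries 1 and 2 correlated at 0.982. Genes at 1 FPKM or more numbered 12296 in deletion library 3, 10442 and 10149 in the other deletion libraries, and 11214 and 11244 in wild type. In it 138 genes reached 1 FPKM while staying under 0.1 in the other 4 libraries, against 2 and 6 such genes in deletion libraries 1 and 2. Markers of ovarian and connective tissue were among the transcripts it carried. The 23 granulosa and cumulus markers summed to 34.3 and 44.3 FPKM in wild-type libraries and 34.8, 34.9 and 271 after deletion. Cyp11a1, the enzyme that starts steroid synthesis, was at 82.3 FPKM in deletion library 3 and at most 0.434 in the other libraries. Hsd3b1, another steroid enzyme, was at 80.6 FPKM in deletion library 3 and at most 0.350 in the other libraries. These 2 genes made up much of the sum. Of the 23 markers 17 reached 1 FPKM in deletion library 3 and at most 4 in any other library, but the list was split. Amh was at 0.229 FPKM in deletion library 3 against 1.17 and 0.624 in the other deletion libraries, Cyp19a1 at 6.48 against 9.05 and 8.33 and Fshr at 0.233 against 0.475 and 0.254. The 21 stromal and muscle markers summed to 28.4 and 25.3 FPKM in wild-type libraries and 55.4, 44.5 and 479.6 after deletion, with the matrix protein gene Sparc at 107 FPKM in deletion library 3 and at most 1.58 in the other libraries. Leukocyte markers summed to 17.2 and 26.9 FPKM in wild-type libraries and 31.2, 22.5 and 91.8 after deletion. Oviduct epithelium markers summed to 50.2 and 42.1 FPKM in wild-type libraries and 14.9, 12.04 and 66.9 after deletion. The keratins of that list were highest in deletion library 3, with Krt19 at 17.7 FPKM in deletion library 3 and at most 1.17 in the other libraries and Krt8 at 16.7 FPKM in deletion library 3 and at most 3.25 in the other libraries, and both are also made by other epithelia. The ciliated-cell factor Foxj1 was at 2.69 and 1.62 FPKM in the wild-type pair and 0.352 in deletion library 3, and the oviduct glycoprotein gene Ovgp1 at 1.53 and 1.89 against 0.720. Because of this library every count below is for genes called in the same direction with all 5 libraries and again without deletion library 3, unless said otherwise.

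**Figure D1:**
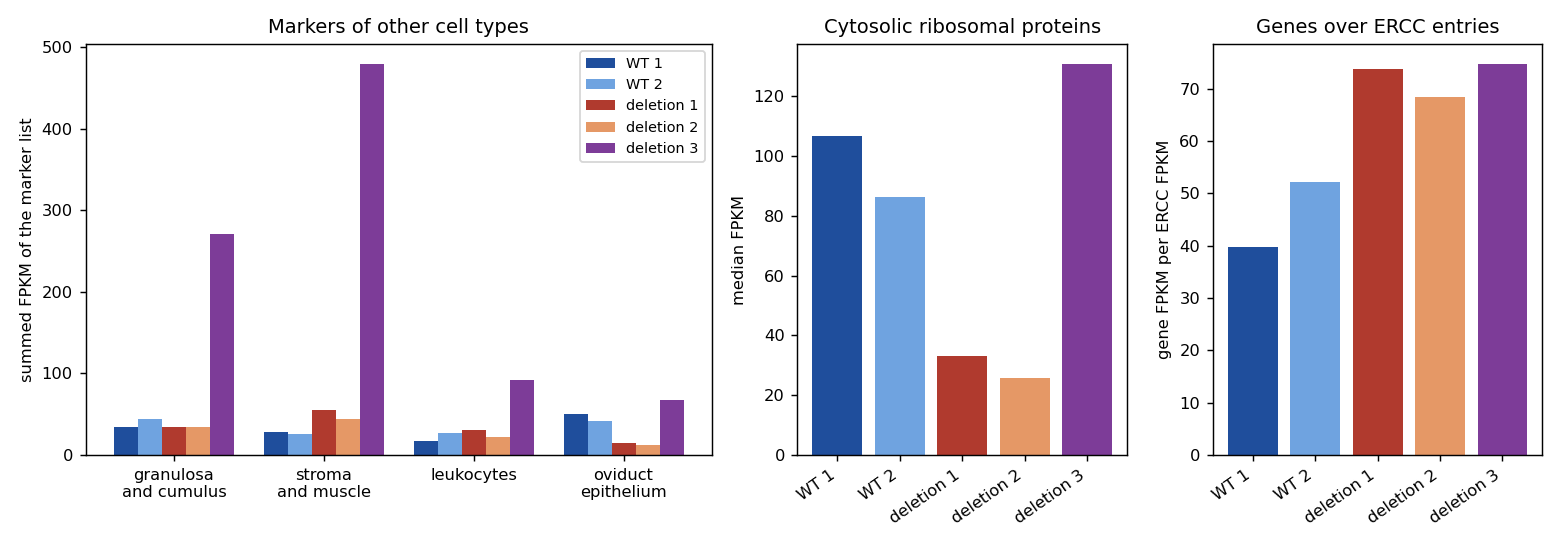
Bars show single 2-cell libraries (WT, wild type). Left, summed FPKM of 4 marker lists, where deletion library 3 is highest in each; middle, median FPKM of 86 cytosolic ribosomal protein genes, low only in deletion libraries 1 and 2; right, summed FPKM of genes over that of the ERCC entries, higher in all 3 deletion libraries (68.3 to 74.8) than in both wild-type libraries (39.8 and 52.2).

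The table also held 92 entries with the names of ERCC spike-in controls, artificial RNAs that can be added in a known amount, and 2 further entries named RGC-GFP and RGC-mRFP. They were left out of the genes. Summed FPKM of genes over that of the ERCC entries was 39.8 and 52.2 in wild type and 73.7, 68.3 and 74.8 after deletion. The groups did not overlap, and the mean ratio was 1.57 times higher after deletion (exact two-sided permutation p = 0.2). That p is 2 times the one-sided value, and by this rule 2 libraries against 3 allow none smaller. The labels do not give the amount added or the number of embryos, so more RNA per embryo, more embryos per library and less spike-in cannot be told apart. FPKM is a share of the library, and in these bulk samples fewer cells of a type and less RNA per cell cannot be told apart either.

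Cxxc1 itself was lower after deletion. It was at 9.94 and 11.04 FPKM in wild-type embryos and 1.17, 0.626 and 4.16 after deletion, log2 fold change -2.13 ± 0.291 (SE, adjusted p = 2.03e-06), or -2.61 without deletion library 3. The groups did not overlap, and deletion library 3 held the most Cxxc1 of its group. In zygotes Cxxc1 averaged 28.0 FPKM in wild-type and 1.34 in deletion zygotes, and in oocytes of 3-week females 39.8 FPKM in wild type and 1.13 after deletion.

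Most genes differed between the groups. With all 5 libraries 8867 of 12178 genes passed a Benjamini-Hochberg adjusted p under 0.05 in a limma model (72.8%), 4876 of them higher (40.0%) and 3991 lower (32.8%). Without deletion library 3 the counts were 4743 higher (38.9%) and 4446 lower (36.5%). In both fits 4608 genes rose (37.8%) and 3904 fell (32.1%), and these shares are the background against which each gene list below is to be read. In 8901 genes (73.1%) no deletion library overlapped a wild-type library, 4997 higher (41.0%) and 3904 lower (32.1%). The model shares its estimate of spread with the oocyte and zygote libraries. When the 5 2-cell libraries were fitted alone, fewer genes passed, 3774 higher and 3115 lower.

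As deposited, large falls outnumbered large rises. At a size of at least 2-fold in both fits 2253 genes were higher (18.5%) and 2607 lower (21.4%). At least 8-fold, they were 52 (0.427%) and 329 (2.70%). The balance depended on how libraries were scaled. Of the at least 2-fold calls with all 5 libraries 48.2% were higher as deposited, 36.1% under median-of-ratios scaling, 50.5% under quantile normalization and 64.5% when libraries were scaled by the ERCC entries. The median log2 fold change of all genes was 0.13, -0.10, 0.15 and 0.46 in the same order. Every fold change given is on the log2(FPKM + 1) scale, where the added 1 shrinks the change of weakly expressed genes.

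The largest falls were in genes that wild-type 2-cell embryos held in abundance and wild-type zygotes nearly lacked. By the classes defined further on, 9 of the 15 were in the not stored class and 6 in the low class. Alppl2, a placental-type alkaline phosphatase gene, was at 273 and 306 FPKM in wild-type embryos and 3.04, 5.36 and 2.89 after deletion, log2 fold change -5.97 ± 0.184 (SE, adjusted p = 2.96e-15). Slc34a2, a sodium-phosphate cotransporter, was at 169 and 158 FPKM in wild-type embryos and 1.77, 1.70 and 1.81 after deletion, log2 fold change -5.90 ± 0.172 (SE, adjusted p = 1.71e-15). Every deletion library lay far under both wild-type libraries for these genes, deletion library 3 included. Their zygote means were 0.823 FPKM in wild-type and 1.51 in deletion zygotes for Alppl2 and 0.586 FPKM in wild-type and 1.06 in deletion zygotes for Slc34a2.

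Several of the other 13 falls were in genes of DNA-binding factors. The homeobox gene Crxos went from 134 and 119 to 1.87, 1.29 and 2.64 FPKM, the Sp-family factor Sp6 from 71.4 and 58.0 to 0.593, 0.634 and 0.897 and the zinc-finger gene Zfp707 from 110.0 and 107 to 2.85, 1.81 and 1.45. Their log2 fold changes were -5.46, -5.26 and -5.20. Zscan5b, another zinc-finger gene, fell from 138 and 133 to 3.57, 3.93 and 3.79 FPKM and Btbd18, which encodes a BTB-domain nuclear protein, from 83.2 and 86.4 to 1.86, 2.54 and 2.07. Metabolic and signalling genes fell alongside. Sesn2, a stress-inducible regulator of the growth kinase mTORC1, fell from 151 and 143 to 3.27, 3.58 and 3.75 FPKM, and Pdxk, the kinase that activates vitamin B6, from 41.5 and 45.7 to 0.455, 0.486 and 0.411. Guca1a, an activator of guanylate cyclase, fell from 114 and 108 to 3.79, 1.8999 and 2.24 FPKM, and Klrg2, a lectin-like receptor gene, from 46.3 and 39.6 to 0, 1.49 and 0.402. The rest of the 15 were Fam109a (-5.30), AF067063 (-5.12), AU015228 (-5.06) and the class I histocompatibility gene H2-Q8 (-5.14). H2-Q8 has near-identical copies and was at 0.00137 and 0.00150 FPKM in deletion libraries 1 and 2 but at 3.58 in deletion library 3, so its value is uncertain.

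Of the 15 largest rises, 11 were in genes that the oocyte stores at 10 FPKM or more. The other 4 (Stambpl1, Igfbp7, Fabp7 and Schip1) were in the low class defined further on. Stambpl1 is in it through wild-type zygotes (1.86 FPKM), and it was at 0.724 FPKM in wild-type and 40.5 in deletion oocytes of 3-week females. Lsm5, a subunit of the ring that binds U6 RNA, was at 8.68 and 12.6 FPKM in wild-type embryos and 182, 255 and 171 after deletion, log2 fold change 4.13 ± 0.195 (SE, adjusted p = 7.95e-13). Pdcd6, a calcium-binding adaptor, was at 1.79 and 2.48 FPKM in wild-type embryos and 39.6, 64.5 and 43.7 after deletion, log2 fold change 3.98 ± 0.178 (SE, adjusted p = 3.55e-13). The histone gene Hist1h2bc was at 4.06 and 3.94 FPKM in wild-type embryos and 73.8, 76.6 and 78.6 after deletion, log2 fold change 3.95 ± 0.157 (SE, adjusted p = 7.76e-14). In each of them all 3 deletion libraries lay together, well above wild type. Oocyte transcription and meiosis genes belonged to this set. Nobox, the homeobox factor of oocyte growth, rose from 10.5 and 11.7 to 196, 169 and 129.6 FPKM, Zfp57, which protects imprints, from 56.4 and 58.9 to 931, 839.7 and 472, and Mnd1, a meiotic recombination gene, from 2.11 and 0.608 to 34.6, 32.4 and 32.8. Rgs2, a brake on G-protein signalling in the egg, rose from 9.53 and 4.203 to 125, 151 and 60.8 FPKM. Skp1a, a core subunit of SCF ubiquitin ligases, rose from 76.0 and 79.9 to 972, 1113 and 922 FPKM and was the most abundant of the 15.

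The remaining rises were of varied function. Sec11c, a signal peptidase subunit, rose from 4.999 and 2.87 to 64.1, 64.7 and 54.1 FPKM, and Ndufb3, a subunit of respiratory complex I, from 6.44 and 8.58 to 86.1, 126 and 117. The deubiquitinase gene Stambpl1 rose from 0.800 and 0.617 to 13.1, 34.9 and 17.7 FPKM, the fatty acid-binding protein gene Fabp7 from 0.422 and 0.486 to 19.97, 22.1 and 10.4 and Schip1 from 1.75 and 1.39 to 31.9, 32.7 and 25.5. Igfbp7 rose from 0.774 and 1.34 to 13.0, 13.7 and 75.6 FPKM, and its log2 fold change was 3.62 with all libraries and 2.82 without deletion library 3. Ndufs5, another complex I subunit, had the largest fitted rise (5.03), but its wild-type values were 9.22 and 0.000802 FPKM. The second of these may be a failed estimate.

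**Figure D2:**
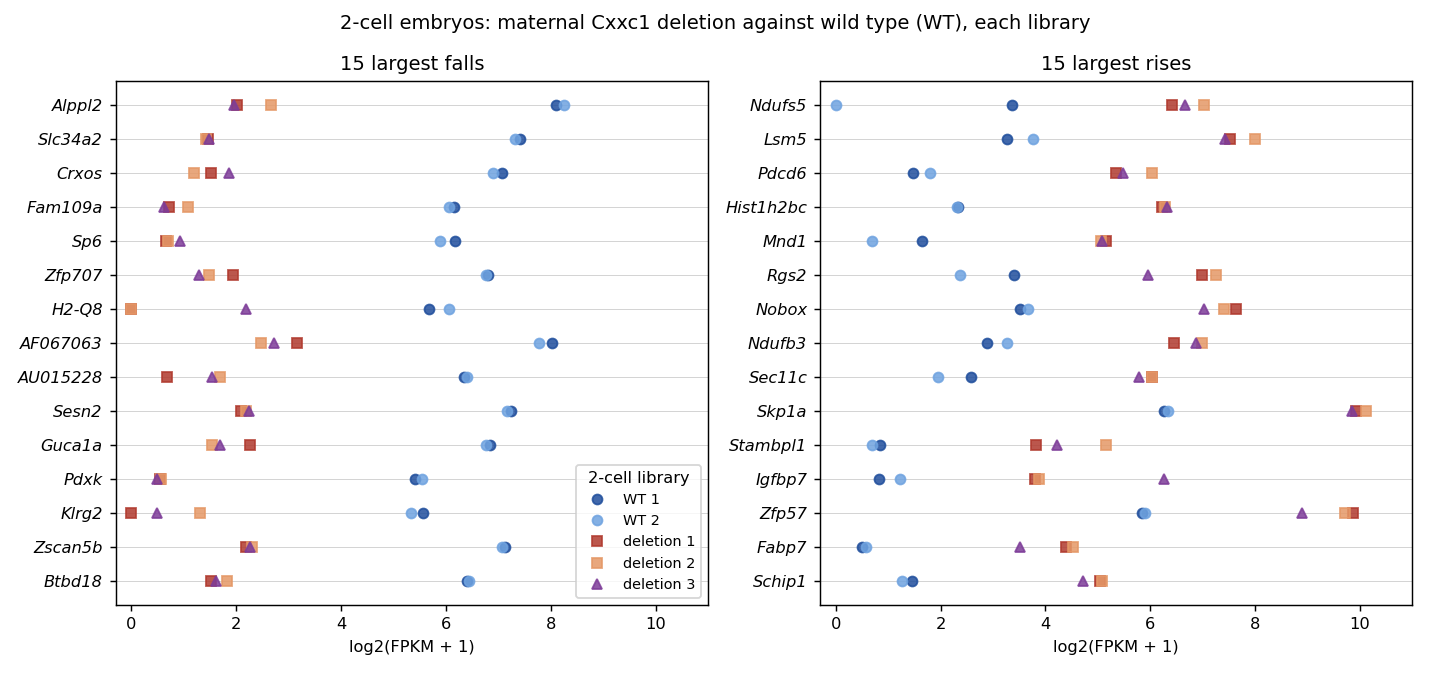
Points show log2(FPKM + 1) of single 2-cell libraries for the 15 genes with the largest fall (left) and the 15 with the largest rise (right), ordered by fitted log2 fold change. The genes were chosen to have no overlap between wild-type circles and deletion symbols, and deletion library 3 departs most from its group in H2-Q8 (3.58 FPKM) and Igfbp7 (75.6 FPKM).

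CFP1 recognises CpG, so the sequence before the start site is shown for the top pair in each direction with a RefSeq window (build GRCm38.p6) and no value between 0 and 0.01 FPKM. Each covers the 250 bases before the annotated start, 5′ to 3′ on the gene's strand, with every CG dinucleotide in capitals.

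Alppl2 (chr1:87089929-87090178, minus strand): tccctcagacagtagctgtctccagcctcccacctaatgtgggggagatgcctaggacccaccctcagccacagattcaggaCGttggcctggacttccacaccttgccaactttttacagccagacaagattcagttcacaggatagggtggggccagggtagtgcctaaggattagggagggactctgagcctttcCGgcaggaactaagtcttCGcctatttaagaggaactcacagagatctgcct

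Slc34a2 (chr5:53049103-53049352, plus strand): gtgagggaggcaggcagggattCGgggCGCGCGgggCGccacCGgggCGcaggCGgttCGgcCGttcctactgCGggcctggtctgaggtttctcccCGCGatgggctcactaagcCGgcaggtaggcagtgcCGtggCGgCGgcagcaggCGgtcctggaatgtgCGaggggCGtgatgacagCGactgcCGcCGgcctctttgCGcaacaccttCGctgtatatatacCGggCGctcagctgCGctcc

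Lsm5 (chr6:56704700-56704949, minus strand): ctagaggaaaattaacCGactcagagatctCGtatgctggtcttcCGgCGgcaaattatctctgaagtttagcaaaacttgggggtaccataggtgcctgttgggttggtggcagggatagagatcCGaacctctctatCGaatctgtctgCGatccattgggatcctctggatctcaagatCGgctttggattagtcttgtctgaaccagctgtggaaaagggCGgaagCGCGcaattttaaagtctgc

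Pdcd6 (chr13:74317327-74317576, minus strand): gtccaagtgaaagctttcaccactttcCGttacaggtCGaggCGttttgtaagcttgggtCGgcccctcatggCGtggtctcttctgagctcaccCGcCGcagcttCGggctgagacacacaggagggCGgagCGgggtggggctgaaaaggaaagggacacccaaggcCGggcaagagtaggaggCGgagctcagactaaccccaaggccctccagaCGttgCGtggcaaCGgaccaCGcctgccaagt

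The window of Alppl2 held 3 CG dinucleotides and that of Slc34a2 held 28. Lsm5 had 11 and Pdcd6 had 16. Among the 9754 tested genes with a window the median over the same 250 bases was 16, with quartiles of 9 and 22, and across all 32851 windows of the table it was 6, with quartiles of 2 and 16. These 4 windows are a description of single genes. No comparison of CpG content between risen and fallen genes is drawn, because under 80% of the genes in several sets had a window. The share was 79.3% for genes lower at least 2-fold, 79.9% for genes higher at least 2-fold and 80.1% for all genes tested. Whether missing windows bias such a comparison was not tested.

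Whether a gene's RNA had been stored by the oocyte went with the direction of its change. Genes were put into 4 classes by their mean FPKM in wild-type 3-week oocytes and wild-type zygotes, so no 2-cell library was used. Genes under 1 FPKM in both were called not stored, and those with a higher mean from 1 to under 10 were called low. Genes with at least 10 FPKM in oocytes and less than 1/4 of that in zygotes were called stored and lost by the zygote, and all others with at least 10 FPKM were called stored.

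Genes not stored mostly fell. Of 1802 such genes tested, 198 rose and 1161 fell, and 169 of the 329 genes that were lower at least 8-fold were of this class. The median log2 fold change was -1.10, against 0.13 for all genes. The filter chose these genes partly through wild type, so all 13408 table entries of the class were also counted without it. Of them 1330 reached 1 FPKM in both wild-type libraries, and 342 did so in both deletion libraries 1 and 2. They made up 6.72 and 5.03% in wild type and 0.836, 0.690 and 2.76% after deletion of the summed FPKM of genes. Deletion library 3, the one with markers of other cell types, was the highest of its group, and its part in this share was not tested. Exact two-sided permutation p was 0.2. Fam109a, an endosomal protein gene, is an example, at 70.7 and 65.6 FPKM in wild-type embryos and 0.641, 1.11 and 0.549 after deletion. Among the few risers in this class were the homeobox gene Hoxd13 (from 0.727 and 0.721 to 10.6, 17.7 and 16.8 FPKM), Dcn (from 0.297 and 0.258 to 2.23, 3.15 and 33.4) and the detoxifying enzyme Mgst1 (from 0.319 and 0.736 to 2.98, 2.21 and 34.7). Dcn, a stromal matrix gene, and Mgst1 were more than 10 times higher in deletion library 3 than in the other deletion libraries, and both lost their call when only the groups compared were fitted.

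Stored genes leaned the other way. Of 4082 genes that stayed stored, 2260 rose and 784 fell, with a median log2 fold change of 0.47. They made up 64.1 and 66.1% in wild type and 74.8, 77.6 and 69.8% after deletion of the summed FPKM of genes. Genes stored and lost by the zygote numbered 2119, and 925 rose and 584 fell, with a median of 0.32. Of the 52 genes higher at least 8-fold, 36 were of this class, 10 were stored, 5 low and 1 not stored. The low class held 4175 genes, of which 1225 rose and 1375 fell, and its median of 0.04 changed sign with a filter at an FPKM of 5 (-0.67), under median-of-ratios scaling (-0.16), without deletion library 3 (-0.07) and with array weights (-0.02). Its share of summed FPKM was 10.7 and 11.03% in wild type and 4.96, 4.45 and 6.50% after deletion.

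Exceptions ran through the stored classes. Dppa4, a chromatin protein of early embryos, was lost by the wild-type zygote and then held 124 and 101 FPKM in wild-type embryos and 6.64, 4.84 and 9.46 after deletion at the 2-cell stage. Surf6, a nucleolar gene, fell from 56.2 and 55.2 to 3.47, 2.63 and 4.88 FPKM. Among stored genes, Fbxo15 fell from 193 and 174 to 14.8, 18.9 and 18.7 FPKM, the RNA-granule gene G3bp1 from 80.8 and 83.9 to 6.54, 6.40 and 11.3 and the H2A variant H2afv from 47.7 and 43.8 to 3.45, 2.67 and 7.23. Tceal8, also stored, rose from 3.11 and 1.47 to 27.3, 50.3 and 37.3 FPKM.

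**Figure D3:**
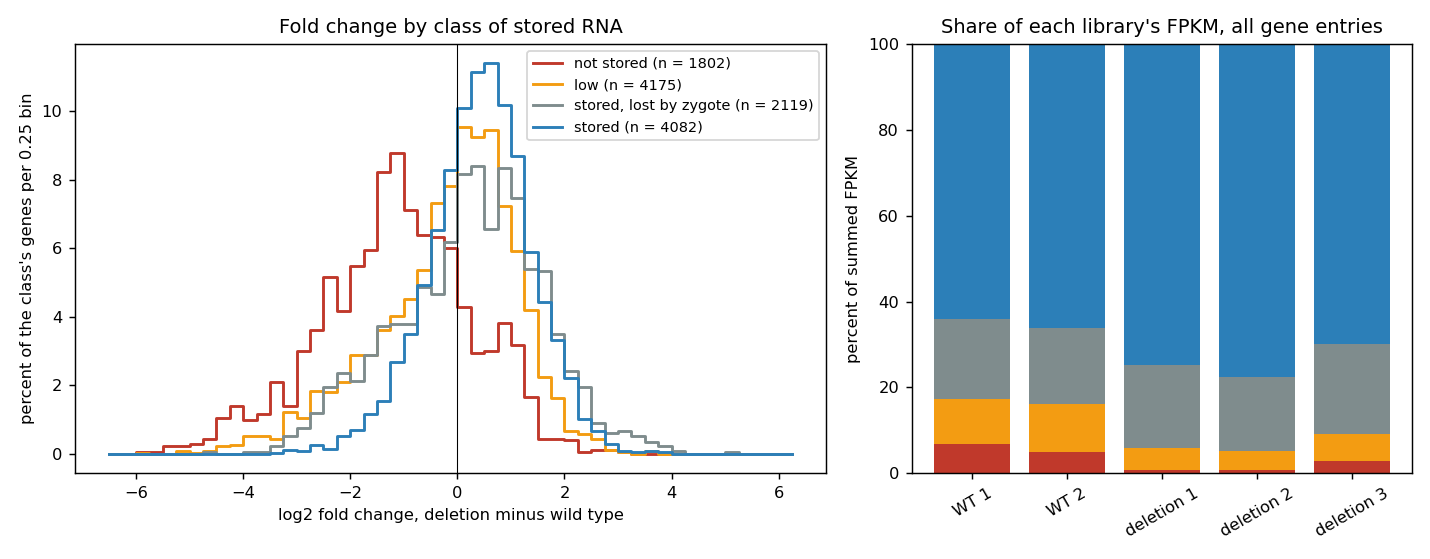
Left, the share of genes of each class in bins of log2 fold change (deletion minus wild type), which peaks left of 0 for genes not stored (n = 1802) and right of 0 for stored genes (n = 4082). Right, the share of each 2-cell library's summed FPKM held by all gene entries of each class, where genes not stored take 5.03 and 6.72% of the wild-type libraries but 0.690 to 2.76% of the deletion libraries.

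Genes of the transient 2-cell burst fell nearly as a whole. The list has 39 genes with an entry, and 38 were tested, 0 rose and 35 fell, with a median log2 fold change of -2.70 (-3.003 without deletion library 3). Their summed FPKM was 1366 and 1249 FPKM in wild-type libraries and 175, 152 and 193 after deletion, against 40.2 to 53.7 in wild-type zygotes and 58.1 to 71.2 in deletion zygotes. The list was thus high in wild-type 2-cell libraries and low in zygotes, and deletion 2-cell libraries lay between them. Several of these genes are markers by which the 2-cell stage is known, and the label's stage was not tested otherwise.

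Single genes of the burst differed in depth of fall. Tdpoz1, of a family of POZ-domain genes, was at 31.5 and 24.5 FPKM in wild-type embryos and 0.163, 0.174 and 0.618 after deletion, log2 fold change -4.47 ± 0.173 (SE, adjusted p = 5.45e-14). Ubtfl1, needed for early cleavage, was at 33.3 and 30.1 FPKM in wild-type embryos and 0.701, 0.375 and 0.412 after deletion, log2 fold change -4.45 ± 0.130 (SE, adjusted p = 1.71e-15). Pramel7 was at 46.6 and 46.9 FPKM in wild-type embryos and 1.24, 1.21 and 1.21 after deletion, log2 fold change -4.43 ± 0.115 (SE, adjusted p = 4.65e-16). None of these overlapped between groups, and all 3 deletion libraries were below 1.3 FPKM. Of the telomere-associated Zscan4 cluster, Zscan4d went from 24.2 and 18.0 to 3.23, 3.39 and 7.13 FPKM (log2 fold change -2.04) and Zscan4f from 52.8 and 36.0 to 7.37, 5.66 and 7.49 (-2.52), so a reduced level remained. Zfp352, another 2-cell zinc-finger gene, went from 30.1 and 29.4 to 4.40, 1.51 and 3.66 FPKM (-2.95). Copies of these families are nearly identical, and reads could be split between them.

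The listed genes that did not pass were Dux, Tcstv1 and Gm13119. Dux, the homeobox factor that activates many genes of this burst, was at 1.17 and 2.03 FPKM in wild-type embryos and 1.97, 2.91 and 2.39 after deletion (log2 fold change 0.41). Tcstv1 was at 32.8 and 26.0 FPKM in wild-type embryos and 24.2, 37.4 and 23.8 after deletion (-0.07), and its relative Tcstv3 fell from 67.2 and 52.0 to 11.8, 8.22 and 6.18 (-2.67). Dux was low in every library, and it and Tcstv1 overlapped between the groups.

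Early embryonic and pluripotency genes divided. Of 44 tested, 8 rose and 25 fell, with a median log2 fold change of -1.12. Beyond Alppl2, Slc34a2 and Crxos, the Kruppel-like factor gene Klf5 was at 51.5 and 34.6 FPKM in wild-type embryos and 2.02, 1.08 and 1.87 after deletion (log2 fold change -4.04). Zfp42, known as Rex1, went from 21.5 and 11.5 to 1.81, 2.86 and 2.09 FPKM (-2.38) and the trophectoderm regulator Tead4 from 3.40 and 5.08 to a listing at 0 in each deletion library. Nr5a2, an orphan nuclear receptor, went from 21.8 and 19.7 to 11.4, 11.5 and 10.4 FPKM (-0.85). Pou5f1, which encodes Oct4 and is stored by the oocyte, rose from 367 and 247 to 421, 512 and 323 FPKM (0.45). Dppa5a rose from 61.7 and 65.0 to 478, 534 and 381 FPKM (2.84) and Dppa3, also called Stella, from 966 and 806 to 1769, 2248 and 1729 (1.11). Sox2 did not pass in both fits, at 4.62 and 2.68 FPKM in wild-type embryos and 2.12, 1.86 and 3.79 after deletion.

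RNA of maternal effect genes, which the oocyte supplies and the embryo needs, was mostly higher after deletion. Of 46 tested, 31 rose and 6 fell, with a median log2 fold change of 0.94. Zar1, an RNA-binding regulator of maternal mRNA, was at 30.5 and 31.3 FPKM in wild-type embryos and 407, 387 and 322 after deletion, log2 fold change 3.54 ± 0.111 (SE, adjusted p = 3.6e-15). Padi6, of the cytoplasmic lattices, rose from 58.0 and 41.9 to 685, 517 and 423 FPKM. Subunits of the subcortical maternal complex went the same way, Nlrp5 from 39.4 and 34.5 to 337, 265 and 216, Ooep from 10.4 and 15.8 to 122, 95.2 and 119 and Khdc3 from 9.09 and 6.37 to 100.2, 77.3 and 80.7. Deletion and wild-type libraries did not overlap in any of these. The mismatch-repair gene Pms2 was the deepest fall on this list, from 13.4 and 14.3 to 1.41, 1.21 and 2.21 FPKM. Trim28, the corepressor that works with Zfp57, fell from 91.4 and 93.4 to 26.9, 22.2 and 32.8 FPKM.

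Egg-coat and secreted oocyte genes were among the most uniformly higher. Of 21 tested, 17 rose and 1 fell, with a median log2 fold change of 1.37. Zp2, the zona pellucida protein that sperm bind, was at 26.5 and 22.9 FPKM in wild-type embryos and 305, 201 and 311 after deletion, log2 fold change 3.39 ± 0.154 (SE, adjusted p = 4.53e-13). Oosp2, an oocyte-secreted protein gene, was at 13.6 and 13.2 FPKM in wild-type embryos and 150.1, 203 and 158 after deletion, log2 fold change 3.56 ± 0.117 (SE, adjusted p = 6.42e-15). Gdf9 and Bmp15, growth factors by which the oocyte signals to follicle cells, rose from 110.0 and 112 to 370.5, 331 and 399.6 and from 105 and 129.7 to 357, 397 and 446 FPKM. The integrin gene Itga9 was the single fall, from 24.1 and 18.1 to 12.7, 15.8 and 14.4 FPKM.

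The large oocyte gene families split by member. Of 50 tested Nlrp, Oog, Obox, Pramel, Oas1 and Fbxw genes, 35 rose and 12 fell, with a median of 1.62. Obox genes, which encode homeobox factors, held both directions. Obox3 was at 132 and 122 FPKM in wild-type embryos and 4.87, 5.68 and 5.49 after deletion, log2 fold change -4.34 ± 0.326 (SE, adjusted p = 5e-10), and Obox6 was at 77.2 and 78.0 FPKM in wild-type embryos and 2.70, 2.57 and 1.33 after deletion, log2 fold change -4.65 ± 0.214 (SE, adjusted p = 5.35e-13). Obox2 was at 62.3 and 46.3 FPKM in wild-type embryos and 307, 335 and 164 after deletion, log2 fold change 2.24 ± 0.226 (SE, adjusted p = 3.44e-08). Obox1 rose from 96.7 and 81.5 to 217, 254 and 201 FPKM, and Obox5 did not pass (from 532 and 374 to 327, 436 and 359). In zygotes Obox3 was at 0.584 FPKM in wild-type and 0.734 in deletion zygotes and Obox6 at 0.154 FPKM in wild-type and 0.0638 in deletion zygotes, whereas Obox2 was at 1259 FPKM in wild-type and 412 in deletion zygotes. Nlrp4a and Nlrp14 rose from 17.5 and 17.0 to 122, 131 and 105 and from 61.2 and 60.0 to 423, 343 and 355 FPKM. Paralogs of these families share sequence, so single members are uncertain.

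**Figure D4:**
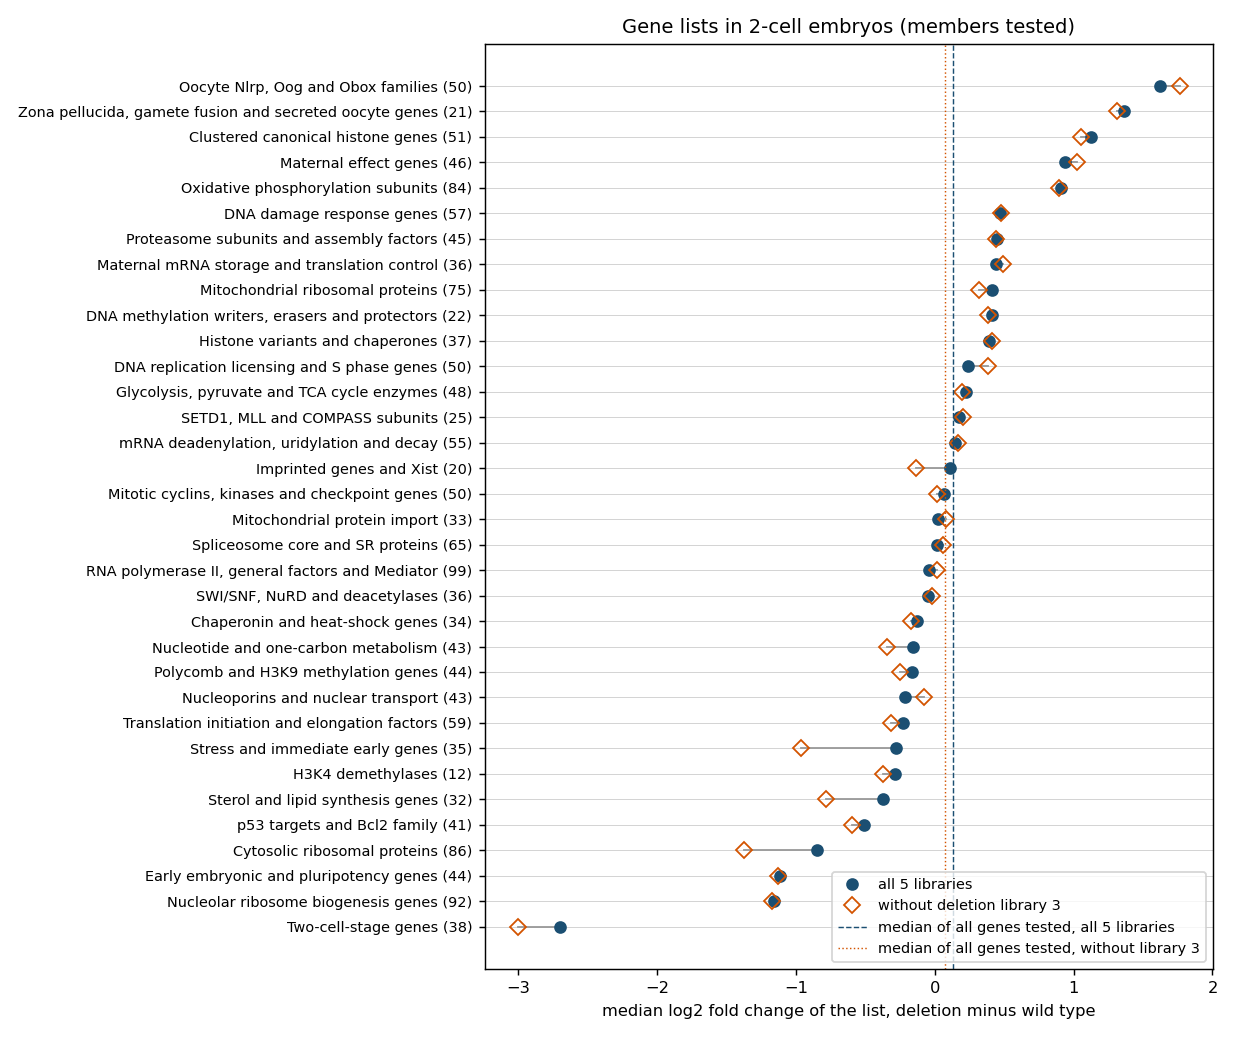
Each line is 1 of 34 gene lists with its number of tested members. Filled circles give the list's median log2 fold change (deletion minus wild type) with all 5 libraries and open diamonds without deletion library 3; dashed and dotted lines give the medians of all 12178 genes (0.13 and 0.07). Two-cell-stage genes lie lowest (-2.70), and cytosolic ribosomal protein and stress genes shift most when deletion library 3 is left out.

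Genes for building ribosomes mostly fell. Of 92 nucleolar ribosome biogenesis genes, 12 rose and 68 fell, with a median log2 fold change of -1.16. The list's median level was 31.6 and 28.8 FPKM in wild-type libraries and 9.14, 9.503 and 10.6 after deletion, and the groups did not overlap. Rrp9, a subunit of the U3 particle that processes ribosomal RNA, was at 163 and 138 FPKM in wild-type embryos and 5.11, 5.33 and 6.39 after deletion, log2 fold change -4.52 ± 0.140 (SE, adjusted p = 2.96e-15). Nop2, a ribosomal RNA methyltransferase, fell from 69.6 and 73.2 to 2.75, 2.19 and 4.84 FPKM, and Polr1c, a subunit shared by RNA polymerases I and III, from 117 and 99.8 to 5.71, 5.46 and 9.25. In zygotes the list's median log2 fold change was 0.59.

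Ribosomal protein genes depended on deletion library 3. Of 86 cytosolic ones, 64 were lower without that library and 41 with it, and 10 rose and 41 fell in both fits. The median log2 fold change was -0.85 with all libraries and -1.37 without deletion library 3. Their median level was 107 and 86.2 FPKM in wild-type libraries and 33.2, 25.6 and 131 after deletion, so deletion library 3 lay above both wild-type libraries and the other deletion libraries below them. Rpl9 shows it, at 103 and 81.3 FPKM in wild-type embryos and 4.86, 4.87 and 91.3 after deletion, and its call was lost when only the 2-cell libraries were fitted. Rpl10l, a testis and embryo paralog, fell from 49.3 and 45.4 to 3.93, 3.997 and 5.70 FPKM in every deletion library. Deletion library 3 is also the one with the highest summed markers of granulosa, stromal and leukocyte cells, and the part these play in its ribosomal protein level was not tested. Mitochondrial ribosomal protein genes did not follow (33 rose and 18 fell of 75 tested, median 0.41). Among them Mrps33 rose from 11.2 and 10.97 to 82.0, 110.3 and 70.5 FPKM and Mrpl41 fell from 11.4 and 9.94 to 0.615, 0.411 and 1.66.

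Canonical histone genes rose with 1 exception among those that passed. Of 51 tested in the histone clusters, 24 rose and 1 fell, with a median log2 fold change of 1.12. Most were at a few FPKM, and their transcripts carry no poly(A) tail as a rule. After Hist1h2bc, the highest were Hist1h2aa (from 8.47 and 2.14 to 47.3, 52.6 and 64.3 FPKM) and Hist1h4h (from 1.30 and 1.43 to 21.1, 26.5 and 16.02). Histone variants and chaperones divided (21 rose and 11 fell of 37 tested). H1foo, the linker histone of the oocyte, rose from 81.8 and 59.4 to 483, 484 and 469 FPKM, whereas the H2A variant H2afz fell from 307 and 244 to 33.5, 38.3 and 84.3.

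General transcription and RNA processing genes moved in both directions, and 5 of these 6 lists had a median that changed sign under at least 1 of the other scalings. For RNA polymerase II, its general factors and Mediator, 38 rose and 39 fell of 99 tested. Med29, a Mediator subunit, fell from 71.6 and 68.0 to 2.96, 2.05 and 4.27 FPKM and the polymerase I factor Taf1d from 125 and 112 to 12.03, 10.1 and 14.5, while Gtf2b, which encodes TFIIB, rose from 58.8 and 32.7 to 421, 518 and 339. For the spliceosome and SR proteins, 22 rose and 25 fell of 65 tested, among them Prpf4 lower (from 11.995 and 12.9 to 0.917, 0.945 and 1.63 FPKM), Cdc5l lower (from 29.9 and 29.0 to 3.86, 2.03 and 7.38) and Snrpb2 higher (from 16.8 and 15.02 to 92.9, 135 and 90.3). For mRNA deadenylation and decay, 26 rose and 18 fell of 55 tested. Lsm4, of the same ring as Lsm5, rose from 8.64 and 12.5 to 90.9, 96.5 and 83.1 FPKM, and the poly(A) exonuclease gene Pnldc1 fell from 11.9 and 13.2 to 1.03, 0.737 and 1.24. Storage and translation control genes of maternal mRNA were counted likewise (21 rose and 9 fell of 36 tested), with the germ-cell translation activator Dazl higher (from 9.52 and 11.9 to 66.5, 112 and 82.2 FPKM) and the somatic poly(A)-binding protein gene Pabpc1 lower (from 129 and 112 to 15.1, 15.3 and 62.0). For translation factors, 19 rose and 26 fell of 59 tested, and Eif3c fell from 84.3 and 80.2 to 13.6, 9.55 and 23.9 FPKM, Eif2ak3 from 21.5 and 18.2 to 1.35, 1.58 and 2.11 and Eif2b5 from 21.9 and 20.04 to 2.76, 2.02 and 3.84. For chaperonins and heat-shock genes, 10 rose and 13 fell of 34 tested, with Bag3 (from 14.7 and 8.26 to 0.715, 1.53 and 3.22 FPKM) and Cct6a (from 29.7 and 25.5 to 4.42, 3.34 and 10.2) among the falls.

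Respiratory chain genes mostly rose. Of 84 oxidative phosphorylation subunits, 52 rose and 11 fell, with a median log2 fold change of 0.91. The list's median level was 14.4 and 13.6 FPKM in wild-type libraries and 30.8, 26.6 and 37.4 after deletion, with no overlap between the groups. Ndufb3 and Ndufc2 are examples, the latter at 1.48 and 2.55 FPKM in wild-type embryos and 25.8, 21.2 and 45.3 after deletion, log2 fold change 3.35 ± 0.274 (SE, adjusted p = 1.65e-09). The same list was higher in deletion zygotes, with a median of 1.23. Mitochondrial import genes divided (12 rose and 14 fell of 33 tested), with Timm9 higher (from 9.07 and 11.8 to 105, 98.6 and 79.8 FPKM), Tomm5 lower (from 47.4 and 34.2 to 1.56, 2.89 and 7.30) and Timm10 lower (from 23.4 and 24.0 to 1.82, 0.783 and 7.19).

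Proteasome genes rose more often than they fell (23 rose and 7 fell of 45 tested, median 0.45). Psma7, a subunit of the catalytic core, rose from 8.94 and 9.39 to 112, 136 and 80.1 FPKM, Psmd10, an assembly factor, from 3.40 and 2.73 to 35.9, 39.6 and 26.1 and the core subunit gene Psmb2 from 26.0 and 21.7 to 131, 119 and 83.4. For glycolysis, pyruvate and citrate-cycle enzymes, 21 rose and 9 fell of 48 tested. Ldhb, the lactate dehydrogenase of the egg, rose from 301 and 259 to 1975, 2129 and 1925 FPKM, Dld from 9.36 and 10.8 to 109, 123 and 102 and the fumarase gene Fh1 from 7.29 and 4.98 to 56.2, 50.3 and 31.7. Biosynthetic lists held more falls than rises, though the nucleotide list's median of -0.15 was 0.10 under ERCC scaling. Of nucleotide and one-carbon genes, 13 rose and 20 fell of 43 tested, with Impdh2, the rate-limiting enzyme of guanine nucleotide synthesis, lower (from 47.6 and 48.1 to 2.16, 2.57 and 7.05 FPKM), Ppat, the first enzyme of purine synthesis, lower (from 38.2 and 31.0 to 1.30, 1.01 and 2.46) and Shmt1 lower (from 42.3 and 46.9 to 2.02, 1.18 and 3.59). For sterol and lipid synthesis, 9 rose and 13 fell of 32 tested, with 20 lower without deletion library 3. Mvk fell from 18.9 and 9.25 to 0.228, 0 and 1.23 FPKM and Scd1 from 8.28 and 8.01 to 0.166, 0.217 and 2.25, while Hmgcs1 rose from 27.9 and 28.0 to 195, 221 and 145. For nucleoporins and nuclear transport, 15 rose and 18 fell of 43 tested. The import receptor Kpna1 fell from 38.5 and 34.7 to 2.10, 1.20 and 3.02 FPKM, Ipo7 from 35.1 and 33.9 to 3.11, 2.57 and 7.75 and the transport regulator Rangap1 from 46.1 and 39.2 to 5.59, 7.42 and 8.81.

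Cell cycle genes held some of the deeper falls without a common direction. For mitotic cyclins, kinases and checkpoint genes, 20 rose and 19 fell of 50 tested. Ccne1, the cyclin of the step into S phase, was at 166 and 148 FPKM in wild-type embryos and 10.6, 7.39 and 9.73 after deletion, log2 fold change -3.96 ± 0.259 (SE, adjusted p = 7.3e-11). Cdk1, the kinase that drives mitosis, was at 47.0 and 35.9 FPKM in wild-type embryos and 5.53, 2.201 and 5.54 after deletion, log2 fold change -3.03 ± 0.255 (SE, adjusted p = 2.54e-09). Cdkn1b, which encodes the inhibitor p27, rose from 2.90 and 3.73 to 38.4, 30.7 and 40.4 FPKM. For replication genes, 22 rose and 13 fell of 50 tested, with Mcm3 of the replicative helicase lower (from 34.3 and 31.1 to 8.91, 5.52 and 7.73 FPKM) and the single-strand binding genes Rpa1 higher (from 13.2 and 12.4 to 118, 132 and 83.7) and Rpa2 lower (from 31.5 and 24.96 to 9.504, 4.05 and 10.2). For the DNA damage response, 30 rose and 17 fell of 57 tested, and Chek2 fell from 9.26 and 13.2 to 0.418, 0.447 and 0.982 FPKM and Rad9a from 17.0 and 14.6 to 1.30, 1.29 and 2.36.

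Among genes that p53 and stress signals induce, falls outnumbered rises, whereas 37.8% of all genes rose and 32.1% fell. Of p53 targets and the Bcl2 family, 7 rose and 21 fell of 41 tested. Cdkn1a, which encodes the inhibitor p21, was at 18.9 and 18.9 FPKM in wild-type embryos and 0.699, 0.963 and 9.01 after deletion, and the death gene Bbc3 at 10.8 and 9.04 FPKM in wild-type embryos and 0.289, 0.618 and 2.74 after deletion. In both, deletion library 3 was the highest of its group. Among stress and immediate early genes 5 rose and 12 fell of 35 tested, a share of falls near that of all genes. Without deletion library 3, 23 of them were lower. Their median was -0.28 with deletion library 3 and -0.96 without it, and this median turned to 0.04 under ERCC scaling and 0.03 without deletion library 2. Trib3, a target of the amino-acid and endoplasmic stress pathway, fell from 22.9 and 24.3 to 1.02, 0.395 and 0.815 FPKM, and the metallothionein Mt2 from 182 and 143 to 13.3, 11.3 and 26.4. The heat-shock gene Hspa1a, which has a near-identical neighbour, fell from 38.4 and 29.9 to 4.26, 2.35 and 8.32 FPKM.

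RNA for the complexes that CFP1 belongs to, and for their relatives, moved in both directions. Of 25 SETD1, MLL and COMPASS genes, 9 rose and 7 fell, and the median of 0.17 changed sign under quantile normalization and median-of-ratios scaling (-0.10 in each). The catalytic subunit gene Setd1a fell from 59.8 and 68.8 to 49.0, 40.1 and 46.2 FPKM (log2 fold change -0.50), and Setd1b did not pass (from 12.3 and 14.4 to 17.5, 14.7 and 17.0). Wdr5 (from 124 and 124 to 136, 143 and 117 FPKM) and Wdr82 (from 42.1 and 49.3 to 62.2, 46.9 and 46.9) did not pass either. Ash2l rose from 19.1 and 15.8 to 33.8, 35.8 and 29.8 FPKM, Dpy30 from 108 and 119 to 259.7, 336 and 231 and Rbbp5 from 4.005 and 4.36 to 10.2, 9.81 and 9.42. After Cxxc1 the deepest falls were Rbm15 (from 45.9 and 44.1 to 10.5, 10.3 and 10.5 FPKM) and Bod1l (from 14.4 and 14.9 to 3.35, 3.06 and 4.29), which are associated factors.

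The list of enzymes that remove H3K4 methylation, which also holds the corepressor gene Rcor2, went in both directions. Of 12 tested, 3 rose and 6 fell, with a median of -0.29 that was 0.09 under ERCC scaling. Kdm5b, which removes the trimethyl mark, was at 73.8 and 64.5 FPKM in wild-type embryos and 3.23, 2.67 and 7.11 after deletion, log2 fold change -3.80 ± 0.246 (SE, adjusted p = 6e-11). Its relative Kdm5a fell from 8.82 and 7.99 to 0.922, 0.629 and 1.91 FPKM and the corepressor gene Rcor2 from 60.2 and 56.6 to 10.5, 9.68 and 9.33. Kdm1b, an oocyte demethylase of the mono- and dimethyl marks, rose from 18.8 and 17.5 to 76.3, 80.4 and 61.6 FPKM and Kdm1a from 11.4 and 13.5 to 33.8, 37.0 and 21.8. The stages differed for these enzymes. Kdm5b was at 0.711 FPKM in wild-type and 0.761 in deletion zygotes, and Kdm1b was at 99.4 FPKM in wild-type and 80.8 in deletion zygotes.

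Other chromatin lists were mixed too. Of genes that write, erase or protect DNA methylation, 11 rose and 7 fell of 22 tested. Uhrf1, which guides maintenance methylation, rose from 20.4 and 21.5 to 97.1, 74.8 and 66.4 FPKM and the dioxygenase Tet3 from 21.9 and 25.4 to 76.6, 49.2 and 45.7, while Tet1 fell from 6.33 and 7.49 to 0.497, 0.385 and 0.567 and Gadd45b from 29.1 and 20.7 to 2.24, 2.57 and 6.76. Dnmt1 did not pass (from 22.2 and 25.4 to 45.4, 18.9 and 55.2 FPKM). For Polycomb and H3K9 methylation genes, 14 rose and 19 fell of 44 tested. Ezh2 rose from 60.8 and 63.4 to 286, 292 and 193 FPKM, and Suv39h1, which trimethylates H3K9, fell from 38.8 and 32.7 to 5.21, 3.33 and 4.49, Cbx3 from 54.1 and 49.8 to 5.54, 7.30 and 18.8 and Kdm3a from 24.7 and 20.02 to 2.29, 1.73 and 3.73. For SWI/SNF, NuRD and deacetylase genes, 14 rose and 14 fell of 36 tested. The NuRD subunit gene Mta2 was at 141 and 152 FPKM in wild-type embryos and 4.92, 3.80 and 7.95 after deletion, log2 fold change -4.54 ± 0.185 (SE, adjusted p = 1.09e-13). Hdac1 fell from 82.7 and 62.7 to 10.2, 10.5 and 13.6 FPKM and Smarcd1 from 10.9 and 9.25 to 0.869, 0.434 and 1.87. Of 20 imprinted genes and Xist, 8 rose and 5 fell, with Gnas higher (from 71.8 and 69.0 to 267, 331 and 325 FPKM), Igf2r lower (from 8.03 and 14.1 to 1.59, 1.22 and 3.57) and Mcts2 lower (from 15.96 and 12.4 to 0, 0.921 and 1.69).

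Markers of other cell types that passed in both fits were few and did not share a direction. Of 4 granulosa markers tested, 2 rose and 1 fell. Amhr2, the receptor for anti-Mullerian hormone, fell from 20.2 and 25.8 to 0.293, 0.209 and 3.55 FPKM, and Serpine2 and the aromatase gene Cyp19a1 rose from 6.13 and 11.2 to 19.7, 22.6 and 37.6 and from 1.42 and 0.947 to 9.05, 8.33 and 6.48. Of 12 oviduct epithelium markers, 1 rose and 4 fell, Epcam from 29.7 and 23.3 to 2.76, 2.16 and 2.16 FPKM and Cldn7 from 4.70 and 6.38 to 2.46, 2.08 and 1.26 among them. Of 9 stromal and muscle markers 3 rose, Dcn, Myh11 (from 3.80 and 4.61 to 29.8, 18.7 and 19.5 FPKM) and Postn (from 0.472 and 0.469 to 3.41, 1.91 and 2.00). Leukocyte markers had 2 risers of 10, Cd68 (from 0.906 and 1.604 to 3.10, 5.41 and 5.12 FPKM) and Ms4a1 (from 7.79 and 5.17 to 15.8, 11.8 and 13.4). For endothelial markers 2 of 4 rose, Kdr (from 0.496 and 0.262 to 1.47, 1.43 and 2.30 FPKM) and Tek (from 3.58 and 3.11 to 4.98, 5.33 and 5.77), and Tie1 fell (from 4.77 and 8.74 to 1.44, 0.796 and 2.32). In the erythroid list 1 of 2 fell, Hba-a1 (from 4.44 and 4.32 to 0, 0 and 0.166 FPKM). Sperm markers had 1 rise of 12, Odf2 (from 74.4 and 70.7 to 123, 117 and 110.0 FPKM), and 1 fall, Hspa1l (from 2.59 and 1.72 to 1.02, 0.523 and 0.567). All 5 tested neuronal and glial markers rose, led by Mbp (from 3.26 and 3.86 to 36.2, 39.2 and 40.1 FPKM), Map2 (from 2.98 and 2.07 to 8.04, 7.72 and 7.05) and Tubb3 (from 70.5 and 43.2 to 85.2, 182 and 106), which were present in all 5 libraries. Of 10 blastocyst and trophoblast markers 3 rose and 2 fell, Fgf4 lower (from 7.29 and 5.72 to 0, 0.129 and 0.178 FPKM), Gata3 higher (from 1.34 and 1.05 to 5.504, 6.43 and 7.33) and Gata6 higher (from 0.158 and 0.642 to 1.49, 1.71 and 7.39). Some of these calls were not stable. Besides Dcn, those of Tek and Gata6 were lost when only the groups compared were fitted, that of Tek also under median-of-ratios scaling and without wild-type library 2, and that of Cd68 with array weights. Dcn, Postn, Kdr, Gata6 and the neuronal and glial markers Syt1 and Mog were under 1 FPKM in both wild-type libraries. They passed the filter only through the deletion group. Amhr2, Hba-a1, Hspa1l and Fgf4 passed it only through the wild-type group. For all of these the filter favoured the direction seen. No hepatocyte marker passed the filter.

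The 2-cell effect was then set against the effect already present in zygotes of the same crosses, which share no library with the 2-cell groups. In zygotes 4720 of the 12178 genes were higher after deletion (38.8%) and 1540 lower (12.6%). The difference between the effects was tested as an interaction, and 7352 genes passed (60.4%) with all 5 2-cell libraries. In both fits the 2-cell effect was the more positive in 2766 (22.7%) and the more negative in 4357 (35.8%). Across genes the correlation of both effects was 0.281 (Pearson) and 0.267 (Spearman), or 0.264 (Pearson) without deletion library 3. Genes are not independent replicates, and this is a description.

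Many of the rises, and few of the falls, were already called in the same direction in zygotes. Of the 2253 genes higher at least 2-fold at 2 cells, 1575 were also called higher in zygotes, which is 69.9% of the former and 33.4% of the 4720 zygote genes. Of the 2607 genes lower at least 2-fold, 191 were called lower in zygotes (7.33% of these and 12.4% of the zygote genes), 644 higher and 1772 not called. Among these 2607 genes, 955 were in the not stored class, under 1 FPKM in wild-type zygotes, where a fall could hardly be called. The 2 shares are therefore not directly comparable. Hist1h2bc was already at 3.33 FPKM in wild-type and 93.3 in deletion zygotes, Sec11c at 2.79 FPKM in wild-type and 40.7 in deletion zygotes and Zp2 at 24.1 FPKM in wild-type and 397 in deletion zygotes. For these, the difference between stages was -0.52, 0.19 and -0.59 on the log2 scale. Alppl2 and Slc34a2 had zygote log2 fold changes of 0.47 and 0.37, and differences between stages of -6.44 and -6.26. Wild-type zygotes held under 1 FPKM of each, which left little room for a fall at that stage.

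Some gene lists reversed their median between the stages. Nucleolar ribosome biogenesis genes went from 0.59 in zygotes to -1.16 at 2 cells, with a median difference of -2.04 per gene. Cytosolic ribosomal protein genes went from 0.74 to -0.85. Oocyte Nlrp, Oog and Obox families went from -0.18 to 1.62. Canonical histone genes had nearly the same median at both stages (1.12 and 1.12). No test was made over a list.

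**Figure D5:**
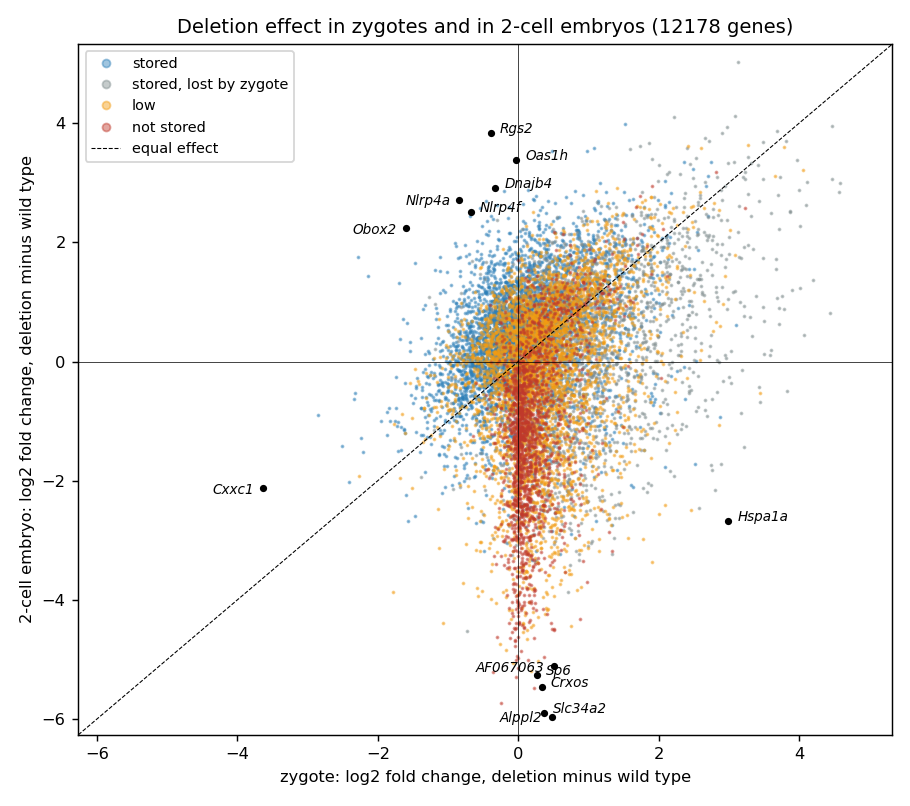
Each point is 1 of 12178 genes, with the log2 fold change (deletion minus wild type) in zygotes on the horizontal axis and in 2-cell embryos on the vertical axis, coloured by class of stored RNA. Genes not stored (red) spread downwards near a zygote effect of 0; black points are Cxxc1 and the 12 genes with the largest differences in either direction, from 4.23 (Rgs2) to -6.44 (Alppl2).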

How the data were processed

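RNA was measured in 23 libraries, of which 3 deletion and 2 wild-type 2-cell libraries were compared. The authors deposited 1 table of FPKM values per gene for all samples. Per the labels' protocols, RNA came from an RNeasy micro column, and the NEBNext Ultra RNA kit was used for libraries. Per the submitters' processing notes, tools included CASAVA 1.4, TopHat2 2.0.12, Cufflinks 2.2.1, Bismark 0.7.6 and SAMtools, with builds mm10 and mm9 named without a role. The sources used here name neither strand nor annotation. FPKM holds no counts, so depth and counting error are unknown, and an exact 0 can be a failed estimate. Bisulfite data were not analysed here.

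Of 24506 entries, 94 were spike-in or reporter entries and were left out, and 27 carried date-like names and are not named. From the deposited FPKM, log2(FPKM + 1) was computed here. A model of 8 group means over all 23 libraries (15 residual degrees of freedom, 14 without deletion library 3) was fitted in R 4.3.3 by limma 3.58.1 (empirical Bayes with an intensity trend) and checked on simulated data. A call is a Benjamini-Hochberg adjusted p under 0.05 over all 12178 genes.

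Named genes are Cxxc1, the 15 largest falls and 15 largest rises (called in both fits, mean FPKM of at least 5, no overlap of groups), from each list the 3 called members that changed most (or, with none called, the 2 of highest mean FPKM), the 6 largest differences from zygotes in each direction, the 2 markers per cell type highest in deletion library 3 and the 3 highest and lowest per stored class. Gene models named Rik, LOC or Gm with a number were passed over for the next gene. Other members of the lists were named after their values were seen. The members, the 44 lists and the rules were chosen with earlier results of these data known. Promoter sequences are from RefSeq, build GRCm38.p6, matched by symbol or a unique synonym, and 9754 of 12178 genes had a window. Alternatives covered the pseudocount, filters, scalings, libraries in the fit, weights, the replicate number and each library left out. Scaling by the 20 ERCC entries above 0 in all libraries was added after the data were seen.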

Additional observations from a re-analysis of the deposited data

Results flagged for a closer look

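The deletion effect differed between 2-cell embryos and zygotes in 7352 genes by the limma interaction test, and the following 12 genes had the largest differences, called in both fits. Values are 2-cell minus zygote effect in log2 units. Falls at 2 cells with little change in zygotes gave -6.44 for Alppl2, -6.26 for Slc34a2, -5.80 for Crxos, -5.63 for AF067063 and -5.53 for Sp6. Each of these genes was under 1 FPKM in wild-type zygotes, which left little room for a fall there. Hspa1a was higher in deletion zygotes (0.789 FPKM in wild type and 13.7 after deletion) and lower at 2 cells, a difference of -5.66. In the other direction Rgs2 differed by 4.23, Obox2 by 3.83, Nlrp4a by 3.56, Oas1h by 3.41, Dnajb4 by 3.23 and Nlrp4f by 3.19. Obox2 was lower in deletion zygotes (1259 FPKM in wild type and 412 after deletion) and higher at 2 cells. Oas1h, of the oligoadenylate synthetase family, went at 2 cells from 5.98 and 4.82 to 78.7, 73.1 and 48.5 FPKM, and Dnajb4, a co-chaperone gene, from 12.1 and 10.6 to 97.2, 123 and 64.0.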

How the results depend on the processing

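Across the alternatives no direction of a named gene's call turned, and the 9 counts over all genes stayed within 1.5 times the reported ones with 2 exceptions. Without deletion library 3, the 4446 genes called lower became 2948 when an FPKM of at least 5 was asked for, where fewer genes are tested. Under ERCC scaling, an alternative added after the data were seen, the 2458 genes higher at least 2-fold became 3701. Leaving out each 2-cell library in turn gave 4392 to 4925 genes higher and 3573 to 4446 lower. Of the 152 named genes, Rpl9, Dcn, Tek, Gata6 and Mgst1 lost their call when only the libraries of the groups compared were fitted. Tek also lost it under median-of-ratios scaling and without wild-type replicate 2, and Cd68 with array weights. The erythroid list had no member at an FPKM of 5.

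Replicate numbers are shared by 2 pairs of 2-cell libraries, whose deviations from their group means correlated at -0.044 and -0.036. The deviations of 2 wild-type libraries mirror each other, and deletion library 3 enters the mean of its group. These values therefore cannot decide whether the numbers pair libraries. With the replicate number as a block 4819 genes were called higher and 4492 lower. Deletion library 3 has a number of its own there and drops out by construction. Depth is unknown, so no limit of detection can be given, and a group of 2 wild-type libraries limits precision.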
